A study of Homo sapiens with 8 samples.

Results

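The genes described here carry or brake the signal from RAS to ERK. They were 9 genes chosen by symbol, with earlier results of these data known. The 9 were NRAS and BRAF, the dual-specificity phosphatases DUSP2, DUSP4, DUSP5 and DUSP6, and the inhibitors SPRY2, SPRED1 and SPRED2. All 9 were found among the 63677 genes of the deposited count tables, each under the Ensembl gene that the submitters' table pairs with its symbol, and all passed the filter on low counts in both comparisons. RNA was sequenced from JJN3 and H929, established lines of multiple myeloma, a cancer of plasma cells. Cells were kept for 24 h in THZ1 at 50 nM, which binds the transcriptional kinase CDK7 covalently, or in the vehicle DMSO. Each line and treatment had 2 libraries, so that the groups JJN3 DMSO, JJN3 THZ1, H929 DMSO and H929 THZ1 made up 8 libraries. The study mapped super-enhancers, large clusters of enhancers, in myeloma by H3K27ac ChIP-seq and sought the functionally relevant genes associated with them. Sensitivity of their transcripts to THZ1 was used as a filter on those genes.

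RAS proteins are membrane GTPases that switch on when growth factor receptors recruit exchange factors, and they then pass the signal to RAF kinases, MEK and ERK. ERK activity induces its own brakes: DUSP phosphatases remove the activating phosphates from ERK and related kinases, and Sprouty and SPRED proteins act higher up, near the receptor and RAS. Because these brakes are themselves ERK targets, their transcripts are often read as a measure of pathway output. Activating RAS mutations are common in myeloma, and both JJN3 and H929 are known to carry a mutated NRAS. Counts per gene do not separate alleles.

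The libraries held 17476443 to 19194371 counts on genes, and the limit of 3 counts that a count of 0 allows was 0.156 to 0.172 CPM, the count scaled to the total of its library. Markers of the plasma cell lineage were above that limit for 8 of 8 genes in the JJN3 groups and in H929 THZ1, and for 7 of 8 in H929 DMSO, with summed levels of 2089 to 2125 CPM in JJN3 DMSO, 1387 to 1411 in JJN3 THZ1, 1762 to 1921 in H929 DMSO and 7072 to 7160 in H929 THZ1. Markers of B cells summed to at most 4.04 CPM in any library, with CD22 at 0 throughout, and those of myeloid cells to at most 1.07 CPM. The T cell list summed to 35.0 and 35.9 CPM in H929 THZ1, nearly all of it CD3E with 640 and 650 counts, and to at most 4.41 CPM elsewhere. Of the stromal and epithelial list, 3 of 3 genes were above the limit in the JJN3 groups, 2 in H929 DMSO and 0 in H929 THZ1. EPCAM had 1195 to 1373 counts in JJN3, 2391 and 2249 in H929 DMSO, and 1 and 6 in H929 THZ1. COL1A1 had 33 to 46 counts in JJN3, 54 and 72 in H929 DMSO, and 9 and 2 in H929 THZ1. COL1A2 had 23 to 35 in JJN3, 0 and 0 in H929 DMSO, and 1 and 0 in H929 THZ1. The part of these markers in the results below was not tested.

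The libraries labelled H929 DMSO went against their label in FGFR3 and differed from H929 THZ1 in light chain use. FGFR3, which the translocation of H929 places beside the immunoglobulin heavy chain locus, had 45 and 285 counts in H929 DMSO and 14117 and 13411 in H929 THZ1. WHSC1, the other marker of that translocation, had 6544 and 7026 counts in H929 DMSO, 15702 and 16276 in H929 THZ1 and 2835 to 3362 in JJN3. MAF, the translocated oncogene of JJN3, had 18006 and 16310 counts in H929 DMSO and 2729 and 2942 in H929 THZ1. The study also reports MAF activation in H929, and lower MAF mRNA there after THZ1 at a lower dose. MAF alone therefore does not tell the lines apart. Lambda genes took 99.99% and 97.96% of the light chain V counts in H929 DMSO, against 0.212% and 0.211% in H929 THZ1, and H929 DMSO replicate 2 held 597 kappa counts where replicate 1 held 3. In JJN3 the lambda share was 0.257% to 0.391% under either treatment. Between the libraries labelled H929, the effect of treatment cannot be told apart from a change in the source of cells. The JJN3 comparison is therefore described first, and every difference between the H929 labels is given for the libraries as labelled.

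Counts were scaled by TMM and compared by edgeR's quasi-likelihood test, and p-values were adjusted over all genes tested (Benjamini-Hochberg). A gene was called at an adjusted p under 0.05 and a log2 fold change beyond 0.5. Levels are normalized CPM (TMM over all 8 libraries), given as mean ± SD with n = 2. All values are relative to the total of a library, so in these bulk samples fewer cells of a type and less RNA per cell cannot be told apart. The labels do not say whether the 2 libraries of a group came from separate cultures, and the p-values then measure the spread between these libraries, which may be technical.

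In JJN3, NRAS transcripts stayed near their DMSO level after THZ1 while BRAF transcripts rose. NRAS (ENSG00000213281, hg19 chr1:115247090-115259392, minus strand) had 9217 and 9009 counts under DMSO and 7591 and 8196 under THZ1. These counts became 469 ± 10.9 and 460 ± 5.99 normalized CPM, and the groups differed by a log2 fold change of -0.01 (SE 0.085, adjusted p = 0.899). BRAF (ENSG00000157764, chr7:140419127-140624729, minus strand), the RAF kinase that phosphorylates MEK, had 1182 and 1143 counts under DMSO and 2336 and 2377 under THZ1. Both THZ1 libraries lay far above both DMSO libraries, at 138 ± 7.55 against 59.9 ± 1.85 normalized CPM, and the 2.32-fold rise was the largest among the 9 genes (log2 fold change 1.21, SE 0.081, adjusted p = 1.15e-06). Under every alternative tried, BRAF remained called, with log2 fold changes of 1.11 to 1.27.

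The phosphatases moved apart from each other in JJN3. DUSP2 (ENSG00000158050, chr2:96808908-96811179, minus strand), a nuclear phosphatase first known from activated lymphocytes, had 143 and 95 counts under DMSO and 48 and 59 under THZ1. It fell by 0.96 on the log2 scale (SE 0.248, adjusted p = 0.00625), from 6.13 ± 1.79 to 3.11 ± 0.244 normalized CPM, and was the only member called lower. The DMSO libraries differed among themselves, and without JJN3 DMSO replicate 1 the log2 fold change was -0.65 with an adjusted p of 0.0978, which is not a call.

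DUSP5 (ENSG00000138166, chr10:112257665-112271291, plus strand), a nuclear phosphatase that acts on ERK, went the other way. It had 1036 and 909 counts under DMSO and 1421 and 1815 under THZ1, a 1.90-fold rise (log2 fold change 0.92, SE 0.101, adjusted p = 2.06e-05) that kept its call under all alternatives with the limit of 0.5. The groups did not overlap, at 50.1 ± 4.98 and 93.9 ± 9.92 normalized CPM.

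Neither of the other two phosphatases was called in JJN3. DUSP6 (ENSG00000139318, chr12:89741012-89746278, minus strand), the cytoplasmic phosphatase of ERK that is often used as a readout of the pathway, had 224 and 231 counts under DMSO and 145 and 189 under THZ1. Both THZ1 libraries were below both DMSO libraries, at 9.69 ± 1.16 against 11.7 ± 0.171 normalized CPM, but the difference was not past the threshold (log2 fold change -0.26, SE 0.147, adjusted p = 0.155). DUSP4 (ENSG00000120875), a nuclear phosphatase of ERK and stress kinases, had 1392 and 1288 counts under DMSO and 1106 and 1263 under THZ1. Its normalized levels of 69.0 ± 4.28 and 68.9 ± 1.83 CPM differed by a log2 fold change of 0.01 (SE 0.083, adjusted p = 0.897).

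Among the Sprouty and SPRED inhibitors, SPRED1 rose in JJN3. SPRED1 (ENSG00000166068, chr15:38545037-38649450, plus strand), which brings the RAS GTPase-activating protein NF1 to the membrane, had 386 and 360 counts under DMSO and 420 and 559 under THZ1. The levels of 19.2 ± 1.08 and 28.4 ± 3.82 normalized CPM gave a rise (log2 fold change 0.58, SE 0.122, adjusted p = 0.00181). The THZ1 libraries differed from each other, and the log2 fold change was 0.43 without JJN3 THZ1 replicate 2 and 0.48 with total counts as the scale, both under the limit of 0.5.

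SPRED2 (ENSG00000198369, chr2:65537985-65659771, minus strand), its close relative, had 248 and 225 counts under DMSO and 185 and 224 under THZ1, with a log2 fold change of -0.02 (SE 0.137, adjusted p = 0.915). SPRY2 (ENSG00000136158, chr13:80910111-80915261, minus strand), which restrains receptor tyrosine kinase signals upstream of RAS, was the lowest member, with 32 and 21 counts against 15 and 25. The SPRY2 groups overlapped, and no difference was found between them at these low counts (log2 fold change -0.22, SE 0.377, adjusted p = 0.643).

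Of the 9 members, 3 were called higher and 1 lower in JJN3, beside 20.6% of all 13984 genes tested called higher, 21.3% lower and 41.8% either way. No further member had an adjusted p under 0.05, which 59% of all genes tested had. The median log2 fold change was -0.01 over the members and 0.00 over all genes. With 4 of 9 called in either direction, the members were near the share of all genes.

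**Figure D1:**
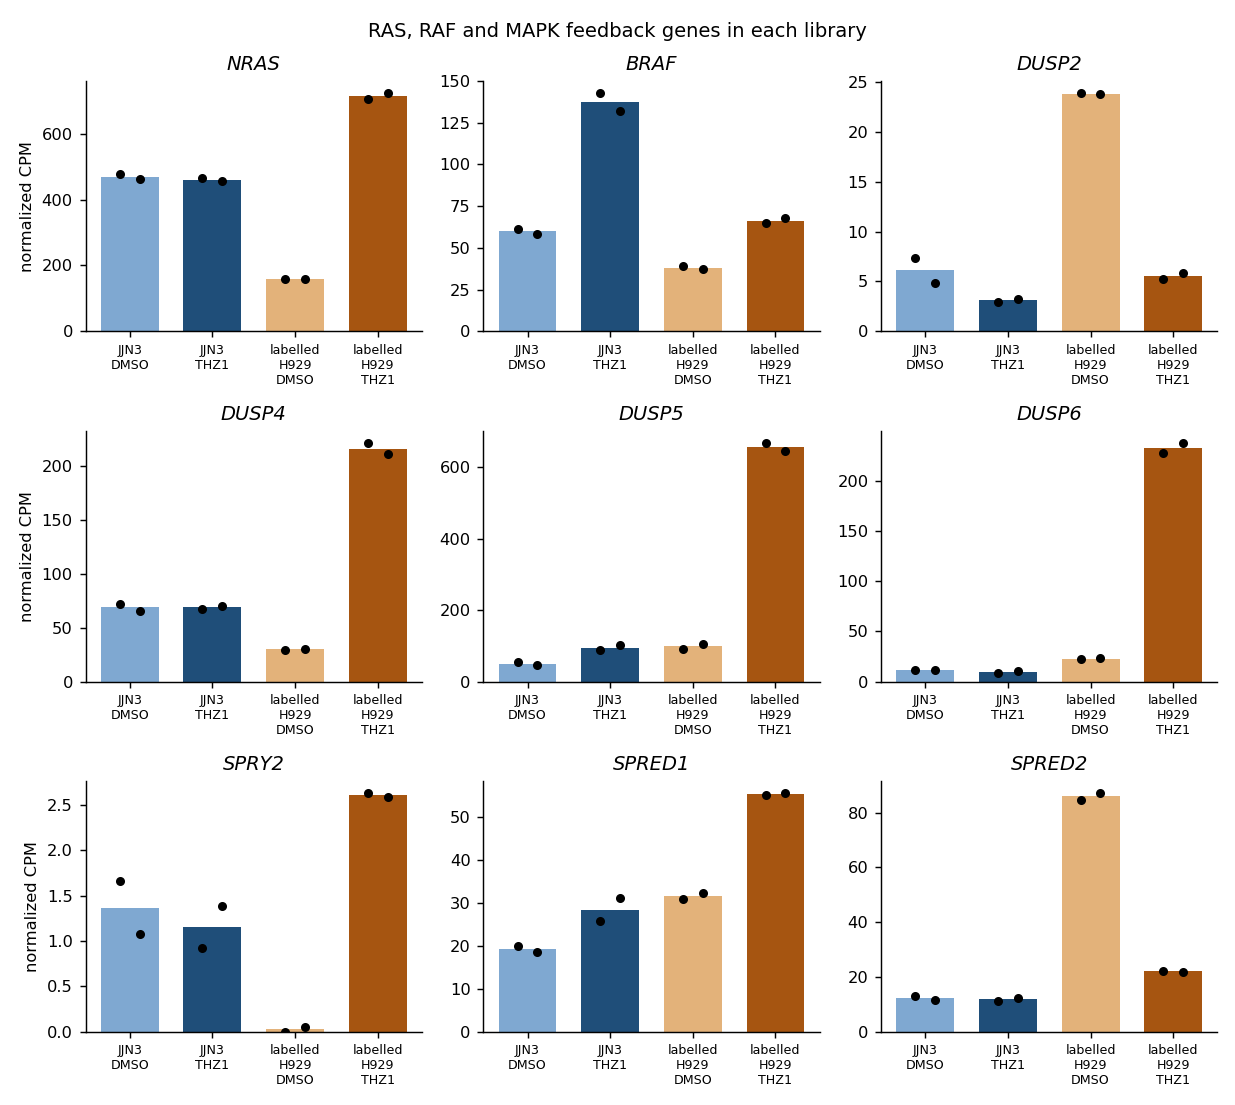
Level of each of the 9 genes in the 8 libraries (y axis, normalized CPM on a linear scale from 0, with its own range for each gene). Bars are means of the 2 libraries of a group and points are the libraries; BRAF stands highest in JJN3 THZ1, DUSP2 and SPRED2 highest in the libraries labelled H929 DMSO, and the other members highest in those labelled H929 THZ1.

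To show the sequence at which these genes start, promoter windows of some members are printed below. They belong to a gene that did not pass the test in JJN3 (NRAS), the gene called lower (DUSP2) and a gene called higher (SPRED1). The DUSP2 call was lost without JJN3 DMSO replicate 1. The SPRED1 call was lost without JJN3 THZ1 replicate 2 and with total counts as the scale. The windows come from RefSeq on GRCh38.p14, run from 250 bases before to 50 bases after the annotated start on the strand of the gene, and lie at chr1:114716722-114717021 (minus strand), chr2:96145391-96145690 (minus strand) and chr15:38252586-38252885 (plus strand). Capitals mark matches to the motifs searched for.
NRAS: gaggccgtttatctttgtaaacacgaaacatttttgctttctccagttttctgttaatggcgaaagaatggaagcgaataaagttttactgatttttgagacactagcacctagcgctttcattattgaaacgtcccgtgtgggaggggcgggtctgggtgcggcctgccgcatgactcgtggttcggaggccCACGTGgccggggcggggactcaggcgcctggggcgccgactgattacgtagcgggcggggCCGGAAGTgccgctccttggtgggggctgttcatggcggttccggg
DUSP2: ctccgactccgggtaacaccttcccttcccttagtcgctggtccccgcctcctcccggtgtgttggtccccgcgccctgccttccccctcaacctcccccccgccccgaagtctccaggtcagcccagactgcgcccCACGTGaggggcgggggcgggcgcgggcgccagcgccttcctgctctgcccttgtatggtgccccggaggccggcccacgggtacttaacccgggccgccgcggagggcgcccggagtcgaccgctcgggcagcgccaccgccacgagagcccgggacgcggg
SPRED1: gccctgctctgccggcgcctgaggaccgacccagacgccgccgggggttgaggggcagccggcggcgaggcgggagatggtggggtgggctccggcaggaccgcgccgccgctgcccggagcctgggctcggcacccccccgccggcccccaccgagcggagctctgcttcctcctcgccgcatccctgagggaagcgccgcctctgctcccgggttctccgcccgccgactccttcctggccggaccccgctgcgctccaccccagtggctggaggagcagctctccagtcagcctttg

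Both strands were searched for the cAMP response element TGACGTCA, the AP-1 site TGANTCA, the ETS site CCGGAAGT, the CArG box of serum response factor, the E-box CACGTG and the TATA box TATAAA, and no matches overlap in the printed windows. These motifs are in 1.85%, 7.71%, 4.14%, 1.29%, 7.26% and 11.5% of the 35116 windows of the RefSeq table. The NRAS window held the ETS letters at bases 5 to 12 after the start and an E-box 57 to 52 bases before it, and the DUSP2 window held an E-box 113 to 108 bases before the start. The SPRED1 window held none of these motifs. Its GC content of 76.3% and the 75% of the DUSP2 window were above the median of 58.7% over all windows, and NRAS had 57.3%. Of the 7 members with an entry, BRAF, DUSP6 and SPRY2 also held none of the motifs, and SPRED2 held 2 AP-1 sites and a TATA box in the second of its windows. DUSP4 and DUSP5 had no entry that was used. These matches are a description of letters and not of binding.

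The other genes of the pathway were read from a list of 66 genes sorted by role, of which 59 passed the filter in JJN3. With THZ1, 21 were called higher (35.6%) and 9 lower (15.3%), beside 20.6% and 21.3% of all genes tested, and their median log2 fold change was 0.28 where that of all genes was 0.00. With total counts as the scale, which shifts the median of all genes by -0.10, 14 were called higher and 10 lower. Of 11 adaptors and exchange factors, 5 were called higher and 0 lower. FRS2, the docking protein of FGF receptors, rose from 294 and 281 counts under DMSO to 643 and 602 (log2 fold change 1.31, SE 0.116, adjusted p = 5.44e-06). SOS1, the principal exchange factor of RAS, rose from 1144 and 953 to 2051 and 2092 (1.18, SE 0.099). The scaffold GAB1 (1.13), its relative GAB2 (0.94) and the exchange factor SOS2 (0.77) were also higher.

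The kinases split within families. ARAF, a paralog of BRAF, fell from 930 and 938 counts under DMSO to 400 and 468 (log2 fold change -0.91, SE 0.093, adjusted p = 1.27e-05), opposite to BRAF. MAP2K2, which encodes a MEK kinase, fell by 0.61, whereas its paralog MAP2K1 was higher by 0.53. MAPK3, which encodes an ERK kinase, had a log2 fold change of 0.16 that did not pass the test (adjusted p = 0.249). The scaffolds KSR1 (1.02) and IQGAP1 (1.00) were higher, and in all 5 of 10 kinases and scaffolds were called higher and 2 lower. Of 5 other RAS-like GTPases, RRAS2 alone was called (-0.99).

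Among genes that switch RAS off, NF1, the GTPase-activating protein lost in neurofibromatosis, rose from 546 and 511 counts under DMSO to 991 and 1193 (log2 fold change 1.24, SE 0.094, adjusted p = 2.15e-06). RASA2, of the same class, was higher by 0.99, and the other 6 of the 8 tested were not called. Of 8 further feedback inhibitors tested, 3 were called lower, namely DUSP7 (-0.93), a phosphatase of ERK, DUSP3 (-0.75), a small phosphatase of MAP kinases, and LZTR1 (-0.85), an adaptor that directs RAS proteins to degradation. PEBP1, an inhibitor of RAF signalling, was higher by 0.66.

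The output genes also moved in both directions. EGR1, an immediate early gene induced by ERK, fell from 358 and 311 counts under DMSO to 73 and 64 (log2 fold change -2.09, SE 0.169, adjusted p = 3.14e-06), the largest fall in the list. IER3, another early response gene, rose from 3 and 6 counts to 43 and 19, and its log2 fold change of 2.95 (SE 0.583) rests on low counts and lay between 2.17 and 3.50 when each library was left out. The receptor EPHA4 (1.04) and PHLDA1 (0.58) were also higher. Of 12 ERK effector kinases and ETS factors, RPS6KA3 (0.52), MKNK2 (0.59), ELK3 (0.57), ELK4 (0.61) and ETS1 (0.53) were called higher, and RPS6KA2 (-0.53) and ETS2 (-0.60) lower. Leaving out single libraries ended 11 of the 30 calls. Among them, RPS6KA2 and EPHA4 were lost without JJN3 DMSO replicate 1, RRAS2, RPS6KA3 and MKNK2 without DMSO replicate 2, and ETS2 without THZ1 replicate 1. PHLDA1 was lost without THZ1 replicate 2, and MAP2K1, ELK3 and ETS1 both without THZ1 replicate 2 and without DMSO replicate 2. The other 19 kept their call in each case.

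**Figure D2:**
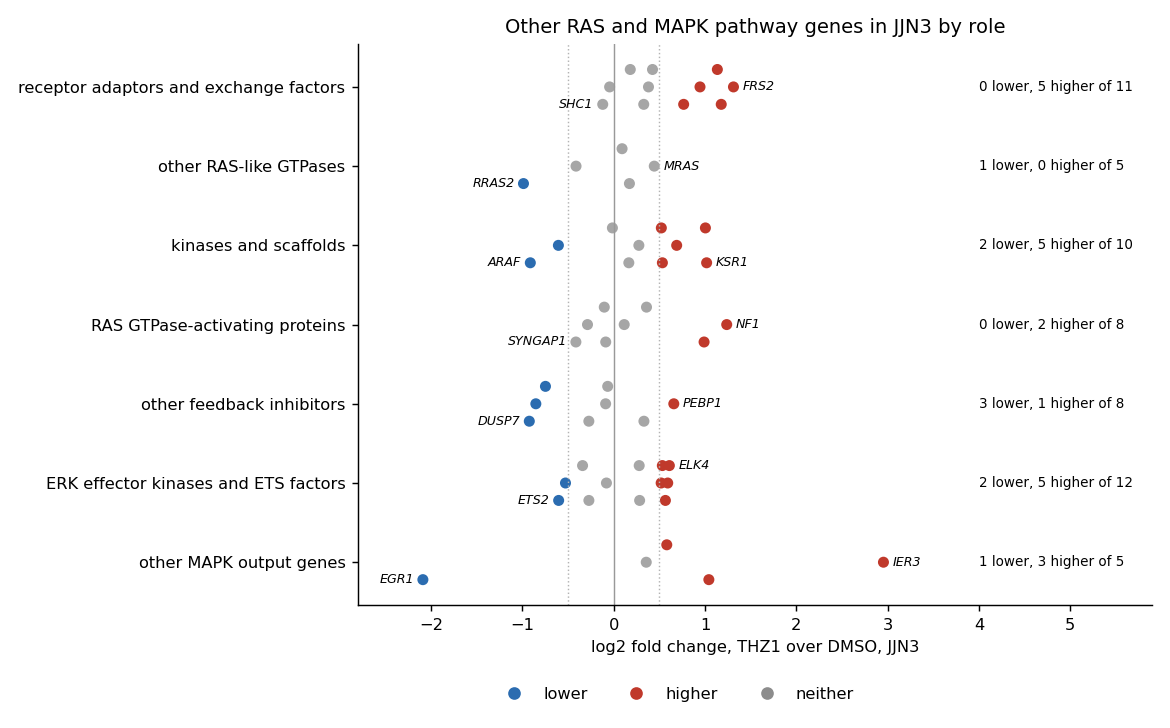
Log2 fold change of THZ1 over DMSO in JJN3 (x axis) for the 59 pathway genes tested, 1 point a gene, in rows by role; blue and red mark genes called lower and higher and the dotted lines the limits of 0.5. Adaptors and exchange factors have 5 genes called higher and 0 lower, and EGR1 lies farthest to the left at -2.09; the named points are the extremes of each row, called or not.

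The genes of the pathway that rose in JJN3 were mostly long. Of the 23 members and pathway genes that span over 100 kb in the annotation, 16 were called higher (69.6%) and 1 lower, beside 29.1% higher and 11% lower of 2593 genes of that span. Among the 26 that span up to 20 kb, 5 were called higher and 7 lower, beside 19.2% and 26.8% of 5462 genes. Of the 19 between 20 and 100 kb, 3 were called higher and 2 lower, beside 17.6% and 20.7% of 5613 genes. BRAF spans 206 kb, SPRED2 122 kb and SPRED1 104 kb, and DUSP2, the member that fell, spans 2.27 kb. DUSP5 spans 13.6 kb and rose, and NRAS spans 12.3 kb and did not pass the test. Across genes, Spearman's rho between span and log2 fold change was 0.46 over these 68 genes and 0.10 over 13668 genes. Pearson's r with the log of the span was 0.31 and, with the opposite sign, -0.057, so that over all genes the sign depends on the measure. These are a description over genes that share the same libraries and are not independent replicates. Between the H929 labels rho was 0.069 and 0.065, and r was -0.011 and 0.058. There, 13 of 24 listed genes over 100 kb were called higher (54.2%) and 6 lower (25%), beside 39.9% and 30.8% of all genes of that span. Of 19 between 20 and 100 kb, 3 were called higher (15.8%) and 9 lower (47.4%), beside 32.4% and 31.5%.

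**Figure D3:**
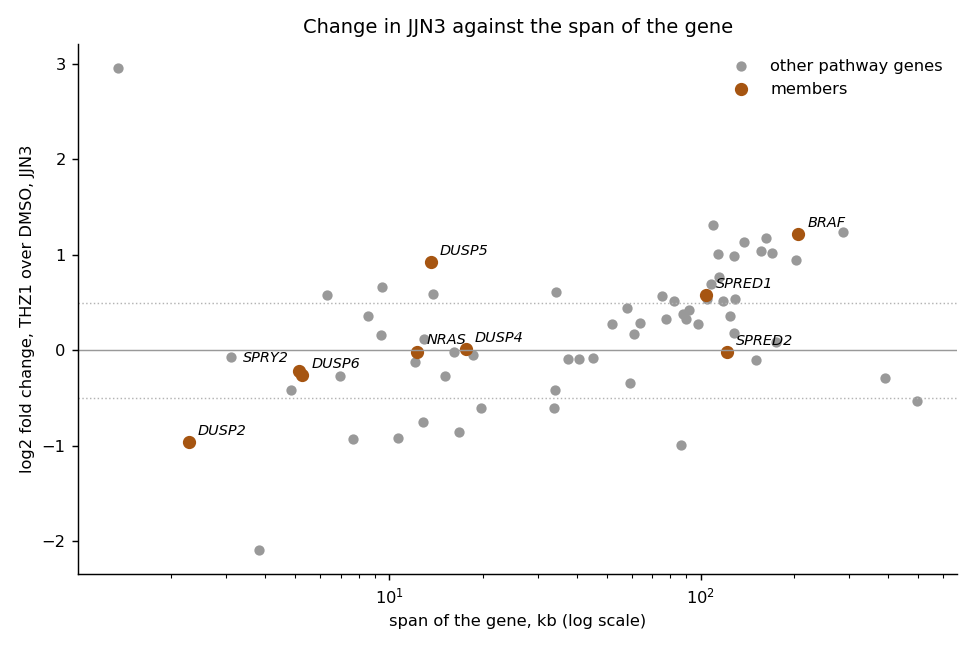
Log2 fold change of THZ1 over DMSO in JJN3 (y axis) against the genomic span of the gene in kb (x axis, log scale) for the 9 members (orange, named) and the 59 other pathway genes tested (grey). Dotted lines mark the limits of 0.5; most genes over 100 kb lie above 0, with BRAF at 1.21, while SPRED2, of similar span to SPRED1, lies at -0.02.

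In the libraries labelled H929, all 9 members differed between the labels. There, 7 were called higher in H929 THZ1 and 2 lower, beside 33.1% of the 14863 genes tested called higher, 32.6% lower, 65.7% either way and 81.9% with an adjusted p under 0.05. The members' median log2 fold change was 2.18, against 0.01 over all genes. Because the members were chosen with earlier results of these data known, this contrast with all genes is a description only. The 11 feedback inhibitors tested outside the members had a median of -1.23, with 8 called lower and 1 higher. NRAS had 2937 and 2865 counts in H929 DMSO and 13418 and 13697 in H929 THZ1 (log2 fold change 2.18, SE 0.055, adjusted p = 7.55e-15). BRAF had 729 and 671 against 1233 and 1288 counts (0.80, SE 0.070, adjusted p = 2.6e-08). The difference between the H929 labels minus that in JJN3 was past an adjusted p of 0.05 for 8 of the 9 members, SPRED1 being the exception, and for 62% of all genes in the fit of 8 libraries.

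DUSP6 differed most among the phosphatases, with 414 and 419 counts in H929 DMSO and 4321 and 4491 in H929 THZ1 (log2 fold change 3.36, SE 0.065, adjusted p = 4.61e-16). DUSP4 had 553 and 546 against 4218 and 4003 counts (2.86, SE 0.062), and DUSP5 had 1691 and 1899 against 12696 and 12215 (2.75, SE 0.067). DUSP2 went the other way, with 444 and 429 counts in H929 DMSO and 100 and 110 in H929 THZ1 (-2.10, SE 0.121, adjusted p = 1.48e-10).

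SPRY2 was nearly absent from H929 DMSO, with 0 and 1 counts, and had 50 and 49 in H929 THZ1. The ratio of the summed counts, scaled to library size, was 95.5, with an exact 95% counting interval of 16.8 to 3811. SPRED1 had 573 and 581 against 1047 and 1049 counts (0.81, SE 0.072, adjusted p = 3.21e-08). SPRED2 had 1574 and 1571 counts in H929 DMSO and 419 and 415 in H929 THZ1 (-1.96, SE 0.071, adjusted p = 5.43e-13), so that the paralogs SPRED1 and SPRED2 differed in opposite directions between the labels.

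Of the other pathway genes, 63 were tested between these labels, with 20 called higher (31.7%) and 24 lower (38.1%), near the 33.1% and 32.6% of all genes tested, and a median log2 fold change of -0.10. Of 11 inhibitors outside the members, 8 were called lower and 1 higher, with DUSP16, a phosphatase of stress kinases, at -1.72 and LZTR1 at 1.26. Of 12 ERK effectors and ETS factors, 8 were called lower and 1 higher, with ETS2 at -4.38 (2458 and 2282 against 119 and 116 counts) and ELK3 at 1.19. Of 10 adaptors and exchange factors, 6 were called higher and 1 lower. RASGRP3, a lymphoid exchange factor, had 20 and 32 counts in H929 DMSO and 818 and 918 in H929 THZ1 (5.01, SE 0.160), and GRB2 was at -0.51, a call lost without H929 DMSO replicate 2 or H929 THZ1 replicate 2, and also with DESeq2, its size factors or total counts.

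Of the 9 GTPase-activating proteins, 4 were called higher and 2 lower. DAB2IP had 36 and 52 against 533 and 511 counts (3.52, SE 0.153). RASAL1 had 1475 and 1512 counts in H929 DMSO and 0 and 2 in H929 THZ1, a ratio of 1548 with an exact 95% counting interval of 428 to 12785. RAP1A (1.00) and MRAS (-2.27) marked the ends among 5 GTPases, with 2 called in each direction. SHOC2 (1.37) and MAPK3 (-0.53, a call lost without H929 THZ1 replicate 2 and with total counts) were the ends among 10 kinases and scaffolds (genes averaging 3 or more in log2 CPM), of which 3 were called higher and 2 lower. Of 6 output genes tested, 3 were called higher and 1 lower, and EPHA4, with 0 and 0 against 63 and 59 counts, was at least 39.2-fold higher in H929 THZ1 against a floor of 3 counts over the group. With EPHA4 at that bound the median of -0.10 is the same.

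**Figure D4:**
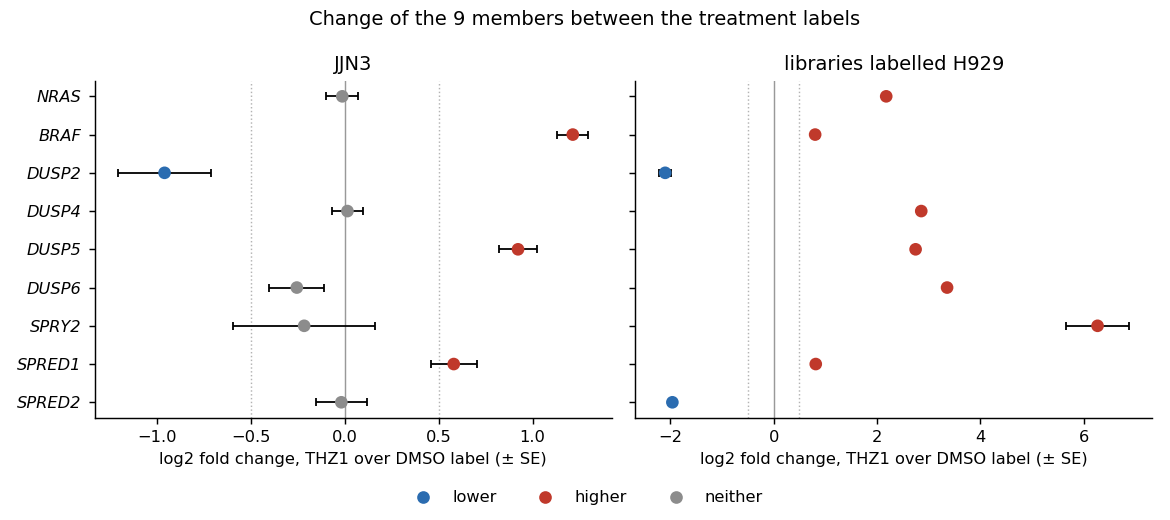
Log2 fold change of THZ1 over DMSO (x axis, points, with bars of ± 1 SE) for the 9 members in JJN3 (left) and between the libraries labelled H929 (right, a wider axis). Blue and red mark genes called lower and higher and dotted lines the limits of 0.5; in JJN3 the values run from -0.96 to 1.21, and between the H929 labels from -2.10 for DUSP2 to the fitted value of SPRY2, which rests on 1 count in H929 DMSO.

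Each member's levels were ordered over the 4 groups in a fit of all 8 libraries. Of the 27 pairs of neighbours in these orders, 18 differed at an adjusted p under 0.05, a threshold passed by 54.6% of the 16122 genes for JJN3 THZ1 against JJN3 DMSO. The share was 75% for H929 THZ1 against H929 DMSO and also for JJN3 DMSO against H929 DMSO, 78.8% for JJN3 THZ1 against H929 DMSO, 75.8% for JJN3 DMSO against H929 THZ1 and 76.6% for JJN3 THZ1 against H929 THZ1. These shares are for fixed pairs of groups, whereas neighbours were picked by the order of the means in the same libraries. A share of differing neighbours over all genes was not computed. NRAS and DUSP4 had the same order, highest in H929 THZ1 (714 ± 12.9 and 217 ± 7.25 normalized CPM), then JJN3 under either treatment, then H929 DMSO (158 ± 0.520 and 30.0 ± 0.355). The JJN3 groups could not be told apart for NRAS (adjusted p = 0.752) or DUSP4 (adjusted p = 1).

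BRAF was highest in JJN3 THZ1, then H929 THZ1 (66.4 ± 2.28 normalized CPM) and JJN3 DMSO, which were not told apart (adjusted p = 0.0794), and was lowest in H929 DMSO (38.2 ± 1.44). DUSP5 was highest in H929 THZ1 (656 ± 15.6), followed by H929 DMSO (98.1 ± 10.1) and JJN3 THZ1, which were not told apart (adjusted p = 0.548), and by JJN3 DMSO. SPRED1 had the same order as DUSP5, from 55.2 ± 0.267 in H929 THZ1 through 31.5 ± 0.965 in H929 DMSO, which was not told apart from JJN3 THZ1 (adjusted p = 0.177). DUSP6 ran from 232 ± 7.15 in H929 THZ1 to 22.7 ± 0.667 in H929 DMSO and then to the JJN3 groups, which were not told apart (adjusted p = 0.0519).

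DUSP2 and SPRED2 were instead highest in H929 DMSO, at 23.8 ± 0.0827 and 85.9 ± 1.67 normalized CPM. For DUSP2, JJN3 DMSO and H929 THZ1 (5.53 ± 0.392) were not told apart (adjusted p = 0.486), and JJN3 THZ1 was lowest. For SPRED2, H929 THZ1 followed at 21.97 ± 0.0723, and the JJN3 groups (12.2 ± 0.924 and 11.9 ± 0.808) were not told apart (adjusted p = 0.837). SPRY2 ran from 2.61 ± 0.0281 in H929 THZ1 through the JJN3 groups (1.37 ± 0.410 and 1.15 ± 0.334, adjusted p = 0.634) to H929 DMSO.

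Compared per kilobase of the reference transcript, NRAS was the most abundant member in JJN3 DMSO, at 108 ± 2.53 normalized CPM per kb. It was followed by DUSP5 (20.2 ± 2.01), DUSP4 (12.4 ± 0.771) and BRAF (9.27 ± 0.286), and then by DUSP2 (3.64 ± 1.06), DUSP6 (3.23 ± 0.0472), SPRED2 (2.70 ± 0.205), SPRED1 (2.64 ± 0.149) and SPRY2 (0.598 ± 0.179). In JJN3 THZ1, BRAF reached 21.3 ± 1.17 per kb and DUSP5 37.9 ± 4.004. In H929 THZ1, DUSP5 (265 ± 6.31) stood above NRAS (165 ± 2.98), and DUSP6 (64.0 ± 1.97) above DUSP4 (39.0 ± 1.31).

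The genes with the pattern most like NRAS over the 8 libraries, among 8958 genes whose log2 CPM averaged 3 or more, were SFXN5, TPD52 and C16orf72, each with a Pearson r of 0.997 on log2 CPM. Those most like BRAF were PAIP2 (0.998), DLST (0.997) and MEX3C (0.996). The points are 4 groups of 2 libraries, so that these values largely reflect the order and spacing of the group means.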

How the data were processed

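RNA was measured by sequencing in 8 libraries, 2 for each line and treatment, grouped by the GEO labels. The authors aligned reads to hg19 with STAR 2.5.2a, kept reads with a single location, and deposited raw counts per Ensembl gene from featureCounts; the strand setting is not given in the sources used here, so reads of overlapping antisense genes cannot be told apart. Their tables of fold changes and p-values from DESeq2 1.12.4 were not used, except that symbols were paired with gene identifiers from the JJN3 table. All 63677 identifiers had a symbol, and where several shared a symbol the highest summed count was taken.

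Counts were fitted in R 4.3.3 with edgeR 4.0.16 (filterByExpr, TMM, glmQLFit and glmQLFTest, Benjamini-Hochberg adjustment over all genes), within each line, and over all 8 libraries for pairs of groups and the interaction. The SE is the log2 fold change divided by the square root of F. The spread between replicates, as edgeR's biological coefficient of variation, was 0.074 for JJN3 and 0.0432 for the H929 labels. Replicates differed by more than sampling noise (chi-square per gene 3.56 to 12.4), so each counted as a library. Gene spans and the lengths of MANE Select transcripts came from GENCODE on GRCh37, and 97.7% of the genes tested in JJN3 had a span. Limits of 3 counts and 95% intervals cover counting error only, since reads are not independent molecules.

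The members, the lists and the tests were chosen with earlier results of these data known. Every member and every pathway gene called in JJN3 could be named, with the exception of some genes that are counted but not reported here by name, and for the H929 labels the largest rise and fall of each role among called genes averaging 3 or more in log2 CPM. RASAL1 was named by this rule, and EPHA4 was named between the H929 labels after its values were seen. Alternatives were DESeq2 1.42.0, DESeq2 size factors or total counts, no filter or 1 CPM in 2 libraries, a single fit of the 8 libraries, a block for the replicate number, other limits and leaving out each library. The scripts were tested on simulated data.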

Additional observations from a re-analysis of the deposited data

Results flagged for a closer look

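The difference between the THZ1 and DMSO labels was itself compared between the lines, as the interaction of line and treatment over all 8 libraries (edgeR's quasi-likelihood test, adjusted over 16122 genes, of which 62% passed an adjusted p of 0.05). It was past the threshold for 8 of the 9 members. The log2 fold change of the H929 labels exceeded that of JJN3 by 2.20 for NRAS (adjusted p = 1.85e-11), 2.85 for DUSP4 (adjusted p = 3.56e-12), 1.83 for DUSP5 (adjusted p = 5.37e-09), 3.62 for DUSP6 (adjusted p = 4.6e-12) and 6.49 for SPRY2 (adjusted p = 4.77e-06), the last resting on 0 and 1 counts in H929 DMSO. The difference of H929 minus JJN3 was -0.40 for BRAF (adjusted p = 0.00367), which was higher with THZ1 in both. It was -1.13 for DUSP2 (adjusted p = 0.00196), lower in both, and -1.93 for SPRED2 (adjusted p = 5.55e-09). For SPRED1 it was 0.24 (adjusted p = 0.14), with a range of 0.13 to 0.41 over the alternatives. Since the libraries labelled H929 DMSO and H929 THZ1 differ in light chain, FGFR3 and MAF, a different response to THZ1 and a different source of cells cannot be told apart in these values.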

How the results depend on the processing

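With a limit of 1 on the log2 fold change in place of 0.5, the counts in JJN3 were 0 members lower and 1 higher, and 1 pathway gene lower and 8 higher. Leaving out each library gave 0 to 1 members lower, the 0 without JJN3 DMSO replicate 1, where DUSP2 was -0.65 (-1.25 to -0.65 over the libraries left out). The sign turned for members near 0 in JJN3 that were called under none of the alternatives: NRAS was 0.0028 with DESeq2 size factors, 0.0045 with the 1 CPM filter and -0.050 to 0.00025 with libraries left out. DUSP4 was -0.088 with total counts, -0.0063 with DESeq2, -0.028 with no filter, -0.0013 with all 8 libraries in one fit and -0.061 to 0.060 with libraries left out. With libraries left out, SPRY2 was -0.55 to 0.10 and SPRED2 -0.11 to 0.047. For NRAS, DUSP4, SPRY2 and SPRED2 the cause was not tested. SPRED1 in JJN3 was 0.48 with total counts and 0.43 to 0.71 with libraries left out, and its difference between the lines passed the threshold with total counts (0.38, adjusted p = 0.0343) and without JJN3 THZ1 replicate 2 (0.41, adjusted p = 0.0118). The other counts of calls stayed within 1.5 times their value, and between the H929 labels BRAF and SPRED1 lost their call with the limit of 1 (5 members higher), while no member changed direction. Replicate numbers are shared by name only: deviations of same-numbered libraries correlated at 0.0034 over genes in JJN3 and -0.012 for the H929 labels. The fit with the replicate number as a block called 1 member lower and 3 higher, and 9 pathway genes lower and 21 higher, in JJN3, and 2 members lower and 7 higher, and 23 pathway genes lower and 20 higher, for the H929 labels. Depth limits SPRY2 most, with 15 to 32 counts in JJN3. Leaving out a library leaves a group with 1, which is then assumed to vary like the others.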

Other observations

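Several feedback and output genes of ERK separated JJN3 from all 4 libraries labelled H929, whatever their treatment; they were chosen after their values were seen. SPRY4, a Sprouty inhibitor, had 0 counts in all 4 JJN3 libraries, and 275 and 264 in H929 DMSO and 268 and 251 in H929 THZ1. ETV4, an ETS factor, had 15 to 19 counts in JJN3, and 1484 and 1441 in H929 DMSO and 1015 and 955 in H929 THZ1. ETV5, its relative, had 23 to 25 counts in JJN3 and 1496 to 1643 in the libraries labelled H929. CCND1, the cyclin that drives entry into S phase, had 0 to 2 counts in JJN3 and 1540 to 1806 in the libraries labelled H929. Among those that did not show this pattern, SPRY2, EGR1 and DUSP4 were lower in H929 DMSO than in any JJN3 library. PHLDA1 went the other way, with 578 to 935 counts in JJN3 and 378 to 442 in the libraries labelled H929. In the fit of 8 libraries, 75% to 78.8% of all genes passed an adjusted p of 0.05 between JJN3 and H929 groups. That is a different measure, and the share of all genes that separate the JJN3 libraries from those labelled H929 was not computed. The H929 DMSO and H929 THZ1 libraries differ in light chain and FGFR3, so they may not share a source of cells.

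EGR1, which fell in JJN3, had 8 and 8 counts in H929 DMSO and 122 and 110 in H929 THZ1. IER3 was higher with THZ1 under both pairs of labels, with 26 and 39 counts in H929 DMSO and 179 and 186 in H929 THZ1. Both were named here after their values were seen.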
